A study of Sus scrofa with 24 samples.

Results

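The genes described here are counted as factors of pre-mRNA splicing by their symbol alone. They are those of every probe set whose platform gene symbol starts with SRSF, SF3, SNRP, SNRNP, HNRNP, PRPF, LSM, U2AF or TRA2. Such a rule can take in genes with other roles, such as LSM14A, an RNA-binding protein of cytoplasmic granules. The rule found 110 probe sets for 68 genes among the 23999 porcine probe sets of the array, and 101 of them, for 67 genes, passed the filter on dim probe sets. The splicing machinery removes introns from newly made transcripts. Small nuclear ribonucleoproteins (snRNPs), built on Sm or LSM protein rings, recognise the intron ends. U2AF and the SF3 complexes mark the branch point and the 3′ splice site, and PRPF proteins carry the spliceosome through assembly and catalysis. SR proteins and the related TRA2 proteins mostly promote the use of exons, hnRNP proteins often oppose it, and blood leukocytes change the balance between these regulators when they are activated.

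RNA came from peripheral blood mononuclear cells (PBMNCs, the lymphocytes and monocytes of a density gradient) of 24 pigs, with 4 animals in each of 6 diet groups, 2 females and 2 males. All diets lasted 4 months. The atherogenic diet (AD) held beef tallow at 5.5%, cholic acid at 1% and coconut oil at 10%. It was given with a grape extract (AD-GE), an extract enriched in resveratrol (AD-GE-RES), resveratrol itself, a stilbene of grape skin (AD-RES), or nothing added (AD). Standard commercial chow was given with the enriched extract (CT-GE-RES) or alone (CT). The extract supplied 1 g, and resveratrol in the enriched extract or alone 18 mg, per 70 kg of body weight. The labels give no genotype, breed or age, so these are not stated. The study asked what the atherogenic diet does to leukocyte expression, compared with CT, and what the supplements do on each diet, compared with AD or CT alone. The AD animals thus serve in 4 of the 5 comparisons and the CT animals in 2, so these comparisons are not independent of each other.

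Values are log2 intensities, differences are log2 differences between group means, and p-values measure the spread between animals. Array medians lay between 38.6 and 41.2 on the deposited linear scale, and 4 arrays a group limit what can be resolved. In a mixed cell preparation, fewer cells of a type and less RNA per cell cannot be told apart. Markers past the filter were present for T cells (8 of 10 genes), B cells (4 of 7), NK and cytotoxic cells (3 of 7) and monocytes (6 of 8), as the PBMNC label calls for. Genes listed as markers of neutrophils (6 of 8), erythroid cells (4 of 7) and platelets (6 of 8) were measured too. Which cells supplied the RNA of these genes was not tested. RNA quality was read from the 3′/5′ ratio, the log2 level of 3′ control probe sets for GAPDH, actin and EF1A minus that of their 5′ ones, averaged, which ranged over the arrays between 1.37 and 4.39. The male CT animal numbered 4 stood apart before any comparison, with the highest ratio, the lowest mean over the splicing probe sets (8.63) and the lowest T cell marker mean (1.19 log2 units under the average over the arrays, a value of -1.19). Its neutrophil and erythroid marker means, 1.84 each, were the highest of the 24 arrays.

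No splicing factor passed the test between diets. With limma and Benjamini-Hochberg adjustment over all 17999 probe sets tested, 0 of 101 splicing probe sets had an adjusted p under 0.05 in any of the 5 comparisons, against a background of 0% of all probe sets in each. At an unadjusted p under 0.05, AD-GE against AD gave 3 splicing probe sets (1 higher, 2 lower), where 6.09% of all probe sets passed (2.79% higher, 3.3% lower). AD-GE-RES against AD gave 2, both higher, with 2.4% of all (1.15% higher, 1.25% lower). AD-RES against AD gave 1, which was lower, with 4.45% of all (1.8% higher, 2.65% lower). AD against CT gave 8 (7 higher, 1 lower), with 6.38% of all (3.25% higher, 3.13% lower). CT-GE-RES against CT also gave 8 (7 higher, 1 lower), with 6.8% of all (3.87% higher, 2.93% lower). The shares of the splicing probe sets were 2.97%, 1.98%, 0.99%, 7.92% and 7.92% in the same order, close to or below these backgrounds.

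The splicing probe sets varied between animals about as much as all probe sets did. Their SD within diet groups had a median of 0.21, ranging between 0.09 for LSM14A, an RNA-binding protein of cytoplasmic granules, and 0.71 for the SRSF10 probe set Ssc.21960.1.S1_at. The median over all probe sets was 0.22. The 95% interval of the difference lay within a 2-fold change either way for 95 of 101 splicing probe sets in AD-GE against AD, 99 in AD-GE-RES against AD and 97 in AD-RES against AD. It did so for 95 in AD against CT and for 92 in CT-GE-RES against CT. The corresponding shares of all probe sets were 92.8%, 94.7%, 93.4%, 91.6% and 92.3%.

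**Figure D1:**
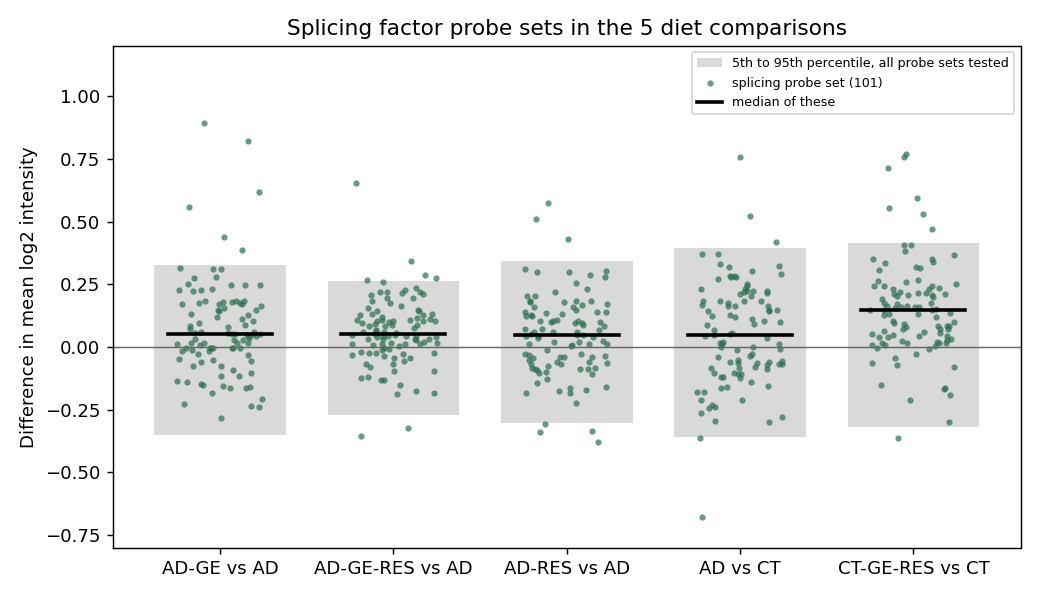
Each point is 1 of the 101 splicing probe sets, with the difference in mean log2 intensity on the vertical axis and the 5 diet comparisons along the horizontal axis; black lines are medians over the 101 and grey bands span the 5th to the 95th percentile of all 17999 probe sets. The medians are 0.05 in the 4 comparisons that include AD and 0.15 in CT-GE-RES against CT, and most points lie inside the grey bands.

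SR and TRA2 proteins, 28 of 33 probe sets tested, supplied 6 of the 8 probe sets at an unadjusted p under 0.05 in AD against CT, and all 6 were higher; the remaining members were PRPF38A (0.37) and SNRPA (-0.30). SRSF6, an SR protein that binds exonic enhancers, had 4 tested probe sets. On probe set Ssc.17252.1.S1_at it measured 9.34, 10.52, 10.47 and 10.06 in AD pigs, against 9.90, 9.49, 9.06 and 8.91 in CT pigs. The first AD animal lay among the CT animals and the remaining 3 animals lay above all of them, so the groups overlapped. The difference was 0.76 (SE 0.27), with a limma adjusted p of 0.757. On probe set Ssc.9241.1.A1_at SRSF6 measured 8.70, 8.78, 8.68 and 8.84 in AD pigs, against 8.31, 8.50, 8.52 and 8.54 in CT pigs. Every AD animal was above every CT animal there, by a mean of 0.28 (SE 0.11, limma adjusted p 0.757).

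The other 2 SRSF6 probe sets were also apart in AD and CT. Ssc.9241.2.A1_at measured 8.74, 8.96, 8.84 and 8.86 in AD pigs, against 8.65, 8.46, 8.59 and 8.54 in CT pigs, a difference of 0.29 (SE 0.12). Ssc.9241.2.A1_a_at measured 8.73, 8.80, 8.98 and 8.87 in AD pigs, against 8.59, 8.65, 8.55 and 8.66 in CT pigs, a difference of 0.23 (SE 0.12). All AD animals exceeded all CT animals on both, but probe sets of 1 gene share their transcripts and are not separate evidence. After the 3′/5′ ratio was added as a covariate, the difference of Ssc.17252.1.S1_at was 0.44 and that of Ssc.9241.1.A1_at was 0.33. The SRSF6 values in CT-GE-RES pigs on Ssc.9241.1.A1_at were 8.61, 8.52, 8.51 and 8.30, overlapping those of CT pigs (difference 0.01, SE 0.11). The other SRSF6 probe sets were higher in CT-GE-RES than in CT. They differed by 0.53 on Ssc.17252.1.S1_at (SE 0.27), 0.21 on Ssc.9241.2.A1_at (SE 0.12) and 0.13 on Ssc.9241.2.A1_a_at (SE 0.12).

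TRA2A, a splicing activator related to fruit fly Transformer-2, varied most over the 6 diets among the splicing probe sets by the F test (F = 5.03), with a limma adjusted p of 0.36. It measured 9.36, 9.47, 9.31 and 9.33 in AD-GE pigs, 9.23, 9.30, 9.52 and 9.24 in AD-GE-RES pigs, and 9.28, 9.31, 8.99 and 8.85 in AD-RES pigs. It measured 9.23, 9.05, 9.39 and 9.27 in AD pigs, and on chow 9.02, 8.96, 9.11 and 8.71 in CT-GE-RES pigs and 8.91, 8.99, 9.06 and 8.89 in CT pigs. The order of the group means was AD-GE (9.37 ± 0.07, SD, n = 4), AD-GE-RES (9.32 ± 0.14), AD (9.24 ± 0.14), AD-RES (9.11 ± 0.22), CT (8.96 ± 0.08) and CT-GE-RES (8.95 ± 0.17). Neighbours in this order overlapped, whereas all AD-GE and all AD-GE-RES animals lay above all animals of both chow groups. TRA2A was 0.28 higher in AD than in CT (SE 0.11, limma adjusted p 0.757), with 1 AD animal inside the CT range.

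SRSF5, an SR protein that activates exons, measured 11.37, 11.46, 11.63 and 11.56 in AD pigs, against 11.36, 11.04, 11.20 and 11.29 in CT pigs. The groups were just apart, with a difference of 0.28 (SE 0.13, limma adjusted p 0.757). TRA2B, the paralogue of TRA2A, measured 9.56, 9.20, 9.25 and 9.25 on Ssc.7281.2.A1_at in AD pigs, against 9.21, 9.03, 8.92 and 9.09 in CT pigs. Its groups overlapped by 1 animal, and the difference was 0.25 (SE 0.10, limma adjusted p 0.757). The other TRA2B probe sets went both ways in AD against CT. Ssc.26307.1.S1_at differed by 0.24 (SE 0.13), Ssc.7281.1.A1_at by -0.08 (SE 0.11) and Ssc.26307.2.S1_at by -0.06 (SE 0.25). In total 5 splicing probe sets did not overlap between AD and CT, all higher in AD, where 2.74% of all probe sets were apart and 1.06% were apart and higher in AD. They were the 3 SRSF6 probe sets of the Ssc.9241 family, SRSF5 and, with a difference of 0.18 (SE 0.15), the HNRNPR probe set Ssc.2292.1.A1_at. On average the CT arrays had a higher 3′/5′ ratio, at 2.19 ± 0.87 in AD and 3.15 ± 1.13 in CT (SD, n = 4; exact permutation p = 0.143, two-sided). T cell markers summed to between 13.11 and 13.48 in AD pigs and between 12.41 and 13.36 in CT pigs. The part of either in the SR protein values was not tested.

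On the atherogenic diet with a supplement, the SR and TRA2 values were mixed. TRA2B on Ssc.7281.2.A1_at measured 9.004, 8.997, 9.13 and 9.18 in AD-GE pigs, all below the 4 AD values given above, a difference of -0.24 (SE 0.10, limma adjusted p 0.804). In AD-GE-RES pigs it measured 9.16, 9.21, 9.04 and 9.10, which overlapped the AD values by 1 animal, a difference of -0.19 (SE 0.10, limma adjusted p 1). That AD-GE-RES difference was -0.12 without the first AD animal. Of the 4 TRA2B probe sets 3 were lower in both comparisons, with -0.15 and -0.05 on Ssc.7281.1.A1_at and -0.03 and -0.10 on Ssc.26307.1.S1_at for AD-GE and AD-GE-RES in that order. The remaining one, Ssc.26307.2.S1_at, was higher by 0.44 and 0.34 (SE 0.25 each), and the mean over the 4 differed by 0.0056 and 0.0035. SRSF11, an SR-related protein, measured 10.26, 10.80, 10.48 and 10.69 on Ssc.23780.1.S1_at in AD-GE pigs, against 10.46, 10.21, 9.04 and 10.28 in AD pigs. The difference of 0.56 (SE 0.25, limma adjusted p 0.804) included the lowest AD animal, the third, which lay far under the others, and was 0.24 without it. SRSF10, a splicing repressor when dephosphorylated, had the widest animal spread, with 6.88, 7.15, 8.88 and 8.72 on Ssc.21960.1.S1_at in AD-GE pigs and 7.60, 6.99, 6.48 and 6.99 in AD pigs. Both male AD-GE animals were high and both females lay in the AD range, with a difference of 0.89 (SE 0.46, limma adjusted p 0.82) that was 0.59 without the third AD-GE animal.

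The SR proteins with the smallest p among lower values also overlapped. SRSF1, the founding SR protein, measured 10.27, 10.04, 10.06 and 9.64 on Ssc.7576.2.A1_at in AD pigs, against 10.08, 10.24, 10.32 and 10.42 in CT pigs. Only the lowest AD animal lay well under the CT range, and the difference of -0.26 (SE 0.16, limma adjusted p 0.771) was -0.17 without it and also -0.17 without the fourth CT animal. The other SRSF1 probe sets differed by 0.32 (Ssc.7576.3.S1_at, SE 0.37) and -0.04 (Ssc.7576.1.S1_at, SE 0.15). SRSF11 on Ssc.17158.1.S1_at measured 9.66, 10.38, 11.16 and 10.64 in AD-GE-RES pigs, against 11.00, 10.97, 10.30 and 10.86 in AD pigs. Its first AD-GE-RES animal was the lowest of the 8, and another was the highest, with a difference of -0.32 (SE 0.26, limma adjusted p 1). Without that first animal the difference was -0.0089, and without the highest it was -0.60. SRSF6 on Ssc.17252.1.S1_at measured 9.06, 9.68, 10.11 and 10.12 in AD-GE-RES pigs, overlapping the AD values given above (difference -0.36, limma adjusted p 1). Leaving out 1 animal gave between -0.61 without the first AD animal and -0.13 without the first AD-GE-RES animal. On Ssc.9241.1.A1_at SRSF6 measured 8.57, 8.86, 8.51 and 8.18 in AD-RES pigs, of which 3 lay below all AD animals (difference -0.22, limma adjusted p 0.98). Without the fourth AD-RES animal the difference was -0.12.

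**Figure D2:**
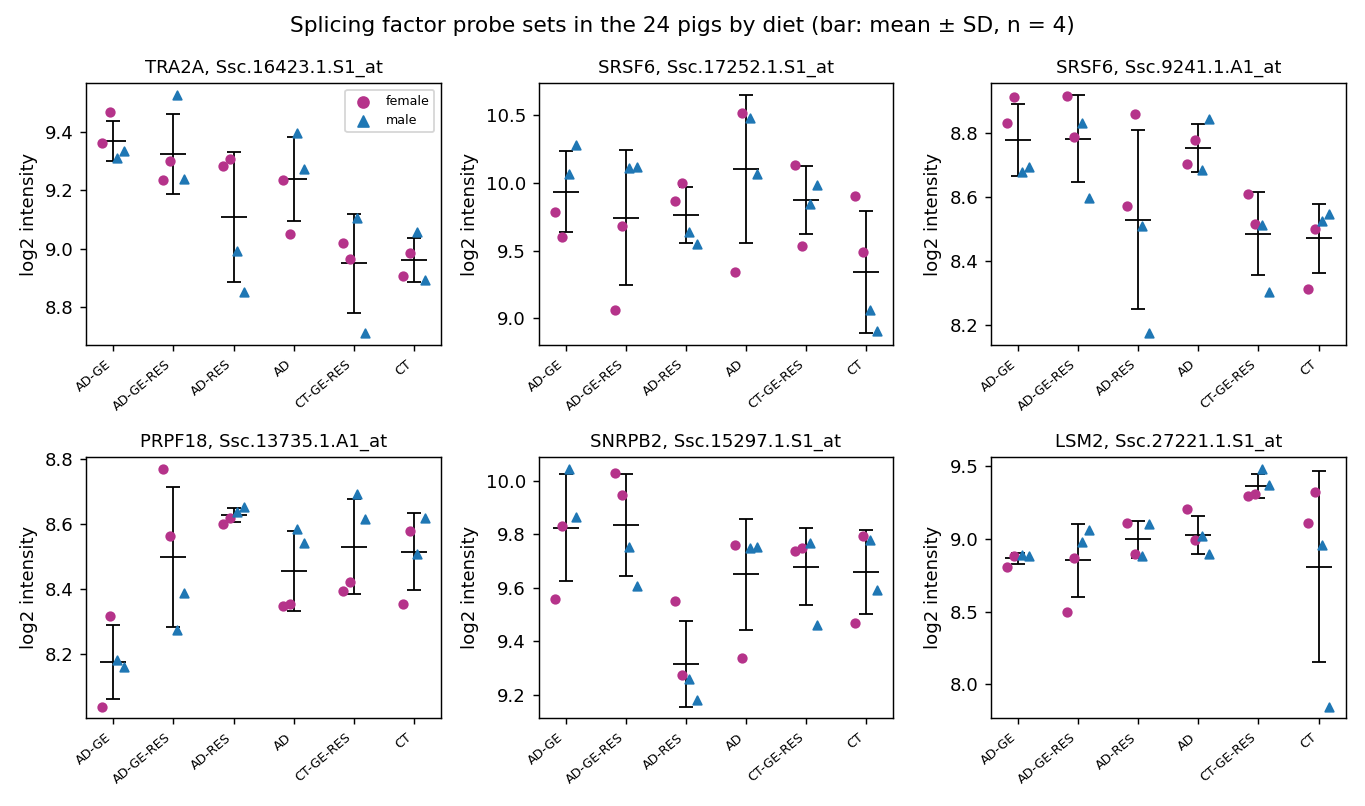
Each panel shows 1 probe set, with log2 intensity on the vertical axis and the 6 diets along the horizontal axis; circles are females, triangles are males, and bars are mean ± SD of 4 animals. TRA2A and SRSF6 (Ssc.9241.1.A1_at) have their lowest means in the chow groups, PRPF18 is lowest in AD-GE, SNRPB2 is lowest in AD-RES, and the low LSM2 value of CT belongs to 1 male.

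U2AF and the SF3 complexes, all 10 probe sets tested, held 0 probe sets with an unadjusted p under 0.05 in the comparisons that include AD. SF3B1, the branch-point-binding scaffold of the U2 snRNP, measured 5.63, 5.34, 6.01 and 6.24 on Ssc.12295.1.A1_at in AD-GE pigs, against 5.16, 5.57, 4.85 and 5.17 in AD pigs. The highest AD animal overlapped AD-GE, and the difference was 0.62 (SE 0.30, limma adjusted p 0.819). This probe set was dim, with a mean of 5.25 over the arrays. The brighter SF3B1 probe set, Ssc.3000.1.S1_at (mean 11.3), differed by 0.25 (SE 0.25). SF3B4, another SF3b subunit, measured 7.24, 7.10, 7.38 and 7.39 in AD-RES pigs, against 7.97, 7.20, 7.53 and 7.93 in AD pigs. All but 1 AD animal lay above the AD-RES animals, a difference of -0.38 (SE 0.19, limma adjusted p 0.98). Within diets 79.8% of the SF3B4 variance went with the 3′/5′ ratio, with a positive slope. The ratio averaged 1.92 in AD-RES and 2.19 in AD. The part of the ratio in this difference was not tested. SF3A1, of the SF3a complex, measured 10.36, 9.76, 10.51 and 10.53 in AD pigs, against 10.67, 10.66, 10.38 and 10.40 in CT pigs. The groups overlapped, and the difference of -0.24 (SE 0.15, limma adjusted p 0.771) was -0.06 without the second AD animal and 0.13 in males alone. U2AF2, the large U2AF subunit that binds the polypyrimidine tract, measured 4.64, 4.41, 5.05 and 4.77 in CT-GE-RES pigs, against 4.94, 4.92, 5.25 and 5.20 in CT pigs. Only 1 CT-GE-RES animal reached the CT range, and the difference was -0.36 (SE 0.15, limma adjusted p 0.7). The U2AF2 probe set was dim too, with a mean of 4.95 over the arrays.

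Among the snRNP proteins, 20 of 20 probe sets tested, SNRPB2, the B″ protein of the U2 snRNP, was the lowest-p member in AD-RES against AD. It measured 9.55, 9.27, 9.26 and 9.18 in AD-RES pigs, against 9.76, 9.34, 9.75 and 9.75 in AD pigs. The groups overlapped through the second AD animal, with a difference of -0.33 (SE 0.13) and a limma adjusted p of 0.98. Over the 6 diets its mean was lowest in AD-RES (9.32 ± 0.16, SD, n = 4) and highest in AD-GE-RES (9.83 ± 0.19). The F test gave 4.00, with a limma adjusted p of 0.424. SNRPA, the U1 snRNP A protein, measured 7.27, 7.10, 7.44 and 6.89 in AD pigs, against 7.50, 7.49, 7.28 and 7.62 in CT pigs. It was the single member at an unadjusted p under 0.05 and lower in AD (difference -0.30, SE 0.13, limma adjusted p 0.757), and the groups overlapped. Without the fourth AD animal the difference was -0.18. SNRPN, a brain-enriched Sm protein, measured 7.65, 8.25, 8.09 and 8.12 on Ssc.3875.1.S1_a_at in AD-GE-RES pigs, against 7.86, 7.62, 7.86 and 7.62 in AD pigs. In AD-GE-RES, 3 animals lay above all AD animals and the remaining animal lay within their range, a difference of 0.29 (SE 0.13, limma adjusted p 1). SNRNP200, the helicase that unwinds U4 from U6, measured 9.30, 9.79, 9.53 and 9.32 in AD-GE-RES pigs, against 9.38, 9.11, 9.37 and 9.17 in AD pigs. The ranges overlapped, with a difference of 0.23 (SE 0.12, limma adjusted p 1) that was 0.14 without the second AD-GE-RES animal and 0.15 without the second AD animal.

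Of the PRPF proteins, 10 of 12 probe sets tested, PRPF18, a factor of the second catalytic step, differed most by p in AD-GE against AD. It measured 8.04, 8.32, 8.18 and 8.16 in AD-GE pigs, 8.60, 8.62, 8.64 and 8.65 in AD-RES pigs, and 8.35, 8.35, 8.58 and 8.54 in AD pigs. All AD-GE animals were below and all AD-RES animals above the AD animals. The differences were -0.28 for AD-GE (SE 0.11, limma adjusted p 0.792) and 0.17 for AD-RES (SE 0.11, limma adjusted p 0.98). PRPF31, needed to join U4/U6 with U5, measured 7.19, 7.34, 7.26 and 7.24 in AD-GE-RES pigs, against 6.86, 7.11, 7.24 and 6.96 in AD pigs. It overlapped through the highest AD animal, with a difference of 0.22 (SE 0.09, limma adjusted p 1). PRPF19, a ubiquitin ligase of the activated spliceosome, measured 9.66, 9.67, 9.66 and 9.54 in AD-GE pigs and 9.57, 9.92, 9.66 and 9.55 in AD-GE-RES pigs, against 9.46, 9.36, 9.46 and 9.53 in AD pigs. It was apart from AD in both, by 0.18 and 0.22 (SE 0.11 each, limma adjusted p 0.855 and 1). Within diets 55.9% of the PRPF19 variance went with the 3′/5′ ratio, with a positive slope. The ratio averaged 2.46 in AD-GE, 2.69 in AD-GE-RES and 2.19 in AD. The part of the ratio in these differences was not tested.

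Counts of members whose groups of 4 did not overlap stayed small beside their backgrounds. For AD-GE against AD there were 4 (PRPF19 higher; PRPF18, LSM2 and TRA2B lower), where 4.72% of all probe sets were apart. For AD-GE-RES against AD there was 1 (PRPF19), where 1.26% were apart. For AD-RES against AD there were 2 (PRPF18 higher and TRA2B on Ssc.26307.1.S1_at lower), where 2.81% were apart. Among the hnRNP proteins, 25 of 26 probe sets tested, none of the comparisons that include AD gave an unadjusted p under 0.05. HNRNPU, a nuclear matrix-binding hnRNP, measured 6.41, 7.06, 5.83 and 6.15 in AD-RES pigs, against 5.55, 6.25, 5.66 and 5.70 in AD pigs, which overlapped (0.57, SE 0.33, limma adjusted p 0.98; 0.33 without the second AD-RES animal). HNRNPA3 measured 10.43, 10.42, 10.28 and 10.28 in AD-RES pigs, against 10.09, 9.77, 10.40 and 10.23 in AD pigs. The difference of 0.23 (SE 0.12, limma adjusted p 0.98) was 0.12 without the second AD animal and -0.030 in males alone. HNRNPM measured 10.48, 10.76, 10.59 and 10.40 in AD-RES pigs, against 9.99, 10.35, 10.75 and 10.14 in AD pigs, which overlapped through 1 high AD animal (0.25, SE 0.15, limma adjusted p 0.98). The HNRNPM difference was 0.39 without that animal, and 0.16 without the first AD or the second AD-RES animal. HNRNPF, which binds G-rich tracts, measured 11.51, 11.46, 11.54 and 11.46 in AD-GE pigs, against 11.56, 11.70, 11.78 and 11.54 in AD pigs. Only the lowest AD value reached the AD-GE range, and the difference was -0.15 (SE 0.10, limma adjusted p 0.863), or -0.09 without the third AD animal.

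With the enriched extract on chow most splicing probe sets were higher. In CT-GE-RES against CT, 87 of 101 splicing probe sets (86.1%) were higher, with a median difference of 0.15. Of all probe sets 52.3% were higher, with a median of 0.01. That background depended on the set used. With the lower 50% of probe sets left out, 87.6% of splicing probe sets and 59.5% of all were higher (medians 0.15 and 0.04). With all probe sets of a gene averaged, 89.6% of splicing genes and 60% of all were higher (medians 0.15 and 0.05). By role the higher ones were 25 of 28 SR and TRA2, 6 of 10 U2AF and SF3, 19 of 20 snRNP, 7 of 8 LSM, 10 of 10 PRPF and 20 of 25 hnRNP probe sets. In the comparisons that include AD the counts were 65 of 101 for AD-GE, 73 for AD-GE-RES and 63 for AD-RES, each against AD, and 58 for AD against CT, with a median of 0.05 in each. Of all probe sets 51.4%, 52.4%, 49.4% and 50.4% were higher in the same order. Single animals moved some of these counts and medians. Without the second AD-RES animal 46 were higher in AD-RES than in AD (median -0.02), and array weights gave 49 (median -0.01). Without the first AD-GE-RES animal 81 were higher in AD-GE-RES than in AD (median 0.12), without the third AD-GE-RES animal 58 (median 0.03). Without the fourth CT animal 53 were higher in AD than in CT (median 0.01). Under these settings between 47.9% and 52.4% of all probe sets were higher.

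LSM2, a subunit of the ring that binds the end of U6 RNA, measured 9.30, 9.31, 9.48 and 9.37 in CT-GE-RES pigs, against 9.11, 9.32, 8.96 and 7.85 in CT pigs. The fourth CT animal was far below the others, and the difference of 0.55 (SE 0.21, limma adjusted p 0.7) was 0.23 without it. PRPF38A, which joins the spliceosome just before activation, measured 8.46, 8.27, 8.32 and 8.42 in CT-GE-RES pigs, against 8.36, 8.18, 7.92 and 7.12 in CT pigs. The same CT animal was lowest, and the difference of 0.47 (SE 0.17, limma adjusted p 0.7) was 0.22 without it. SNRNP40, a WD-repeat protein of the U5 snRNP, measured 8.10, 7.38, 7.61 and 7.92 on Ssc.16667.2.S1_at in CT-GE-RES pigs, against 7.60, 7.42, 7.11 and 6.51 in CT pigs. Its ranges overlapped, and the difference of 0.59 (SE 0.25, limma adjusted p 0.7) was 0.36 without that animal.

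Complete separation was found for 5 probe sets, all higher in CT-GE-RES, where 4.03% of all probe sets were apart and 1.91% were apart and higher. SRSF2, an SR protein that acts on exonic enhancers, measured 11.29, 11.18, 11.27 and 11.32 in CT-GE-RES pigs, against 11.11, 10.95, 10.82 and 10.79 in CT pigs, a difference of 0.35 (SE 0.18, limma adjusted p 0.7). SF3A3, of the SF3a complex, measured 9.71, 9.80, 9.95 and 9.76 in CT-GE-RES pigs, against 9.63, 9.63, 9.55 and 9.41 in CT pigs, a difference of 0.25 (SE 0.13, limma adjusted p 0.7). Both had narrow groups with every CT-GE-RES animal above every CT animal. The others were HNRNPM, SNRPA1 on Ssc.14146.1.A1_at and SRSF10 on Ssc.14292.1.A1_at. The members lower in CT-GE-RES with the smallest p after U2AF2 were LSM12 on Ssc.28144.1.A1_at (-0.16, SE 0.13, limma adjusted p 0.735) and HNRNPH2 on Ssc.3216.1.A1_at (-0.15, SE 0.13, limma adjusted p 0.754). The other LSM12 probe set, Ssc.24956.3.A1_a_at, was higher by 0.21 (SE 0.11). On Ssc.28144.1.A1_at LSM12 measured 7.04, 7.12, 7.23 and 7.16 in CT-GE-RES pigs, against 6.94, 7.26, 7.40 and 7.61 in CT pigs. HNRNPH2 measured 8.76, 8.65, 8.76 and 8.42 in CT-GE-RES pigs, against 8.72, 8.84, 8.90 and 8.72 in CT pigs. Both sets of values overlapped between the diets. With 1 animal left out LSM12 ranged between -0.27 (without the first CT animal) and -0.08 (without the fourth CT animal), and HNRNPH2 was -0.05 without the fourth CT-GE-RES animal.

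Several measures moved together with this pattern. The 3′/5′ ratio was 2.20 ± 0.89 in CT-GE-RES and 3.15 ± 1.13 in CT (SD, n = 4; exact permutation p = 0.143, two-sided). T cell markers summed to between 13.40 and 13.65 in CT-GE-RES pigs and between 12.41 and 13.36 in CT pigs, without overlap. Taken as the marker mean about its average over the arrays, the groups did overlap. The first CT animal had 0.14 and the second CT-GE-RES animal 0.07. Neutrophil markers summed to between 9.98 and 11.30 in CT-GE-RES pigs and between 10.66 and 13.27 in CT pigs, and erythroid markers to between 10.56 and 12.30 in CT-GE-RES pigs and between 11.29 and 14.58 in CT pigs. After adding the 3′/5′ ratio as a covariate, 86 of 101 splicing probe sets were higher (median 0.11), where 54.7% of all probe sets were. With the means of the T cell and monocyte markers in the fit 53 were higher (median 0.01; 50.7% of all probe sets), and when quantile normalization was repeated 71 were higher (median 0.09), or 70.3%. Leaving out any single array gave 73 to 85.

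CT-GE-RES against CT did not have the highest count of the 5 comparisons under each setting. Without the fourth CT animal and the first AD-GE-RES animal, 81 were higher in AD-GE-RES than in AD (median 0.12) and 78 in CT-GE-RES than in CT (median 0.12). With array weights the counts were 85 for AD-GE-RES against AD and 77 for CT-GE-RES against CT. With quantile normalization repeated they were 75 for AD-GE against AD and 71 for CT-GE-RES against CT. Of all probe sets 52.4% and 53.2%, 53.3% and 52.4%, and 50.6% and 47.8% were higher under these settings, in the same order.

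The marker covariates also moved the other counts. With T cell and monocyte marker means in the fit, 39 of 101 were higher in AD-GE than in AD (median -0.06) and 37 in AD-RES than in AD (median -0.06). The counts were 56 for AD-GE-RES against AD and 51 for AD against CT. Of all probe sets 49.3%, 45.8%, 50.9% and 50.4% were higher in the same order. Monocyte markers summed to between 10.65 and 11.01 in AD-GE pigs and between 11.43 and 11.86 in AD pigs, without overlap. As marker means about the average over the arrays they did overlap. The fourth AD-GE animal had 0.09 and the first AD animal 0.05. A test of whether the enriched extract differed between the diets, (AD-GE-RES minus AD) minus (CT-GE-RES minus CT), called 0 of 101 members and 0% of all probe sets by limma. At an unadjusted p under 0.05 there were 4 members, all with negative values, where 3.12% of all passed.

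CT was the group with the lowest mean for 46 of the 101 splicing probe sets (45.5%), compared with 21.9% of all probe sets. The CT means include the fourth CT animal, which had the lowest splicing mean of all arrays (8.63). The count without that animal is not given here. CT-GE-RES was the group with the highest mean for 35 (34.7%), compared with 21.7% of all. Under the F test over the 6 diets, limma called 0 of 101 members and 0% of all probe sets, and 12 members had an unadjusted p under 0.05, where 9.16% of all passed. The range of the 6 group means had a median of 0.34 for the splicing probe sets and 0.32 for all.

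**Figure D3:**
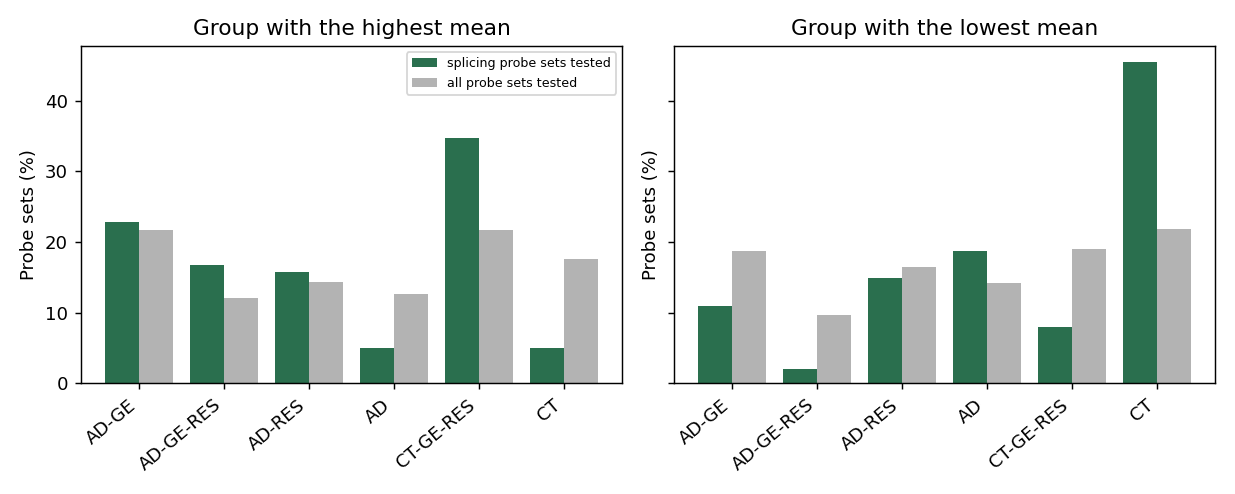
Bars give the percentage of probe sets whose highest mean (left) or lowest mean (right) fell in each diet group, in green for the 101 splicing probe sets and in grey for all 17999. The tallest green bar for the lowest mean is CT at 45.5%, and that for the highest mean is CT-GE-RES at 34.7%.

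Many splicing values went with the 3′/5′ ratio of the RNA, whereas none was called between diets. In a fit with diet, sex and the ratio, limma called the slope on the ratio for 18 of 101 splicing probe sets (5 positive, 13 negative), where 11.5% of all probe sets were called (3.24% positive, 8.29% negative). Without the first CT animal 10 members were called, and the share of all probe sets called there is not given here. The ratio accounted for a median of 10.7% of the within-diet variance of the splicing probe sets, and 7.91% over all probe sets. SRSF11 on Ssc.23780.3.S1_a_at had the steepest member slope and fell by 0.65 log2 units for each unit of log2 ratio (SE 0.07, limma adjusted p 2.61e-06). It measured 8.29, 6.98, 7.37 and 5.79 in the 4 CT animals, whose ratios were 1.64, 3.33, 3.24 and 4.39. The animal with the lowest ratio was highest and the one with the highest ratio lowest, and 80.8% of the variance within diets went with the ratio.

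HNRNPR on Ssc.6689.1.S1_at fell by 0.52 per unit (limma adjusted p 2.79e-05), and on this probe set animals of the same diet differed widely. It measured 6.53, 6.31, 7.59 and 7.64 in AD-GE pigs with ratios of 3.34, 2.97, 1.77 and 1.75. The low values belonged to the 2 females with high ratios. SRSF9 on Ssc.5220.1.S1_at fell by 0.24 per unit (limma adjusted p 3.67e-05), with 82% of its within-diet variance going with the ratio. SRSF6 on Ssc.17252.1.S1_at, the probe set with the smallest p in AD against CT, fell by 0.33 per unit (limma adjusted p 0.00199). SNRPB, a core Sm protein, fell by 0.19 (limma adjusted p 0.00377) and HNRNPH3 by 0.23 (limma adjusted p 0.00193). The other negative slopes belonged to SNRNP40, SRSF1, HNRNPU, SF3B1, PRPF38A, HNRNPM and SRSF7.

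Positive slopes were found for SF3B4 (0.28 per unit, SE 0.04, limma adjusted p 3.26e-05), SNRNP40 on Ssc.16667.3.S1_at (0.23, SE 0.04, limma adjusted p 0.00042) and LSM6 (0.17, SE 0.04, limma adjusted p 0.00948). PRPF19 (0.12, SE 0.03, limma adjusted p 0.0203) and TRA2B on Ssc.7281.1.A1_at (0.11, SE 0.03, limma adjusted p 0.0337) completed the 5. SF3B4 measured 8.08, 8.31, 7.55 and 7.53 in AD-GE-RES pigs with ratios of 3.40, 4.08, 1.67 and 1.62, so both animals with high ratios were above both with low ratios. The 2 with high ratios were the females, so sex and ratio went together in these 4 animals. With T cell and monocyte marker means in the same fit, 1 splicing probe set was called, and the share of all probe sets is not given here. The ratio and the cell markers moved together across the arrays, and their separate parts were not tested.

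**Figure D4:**
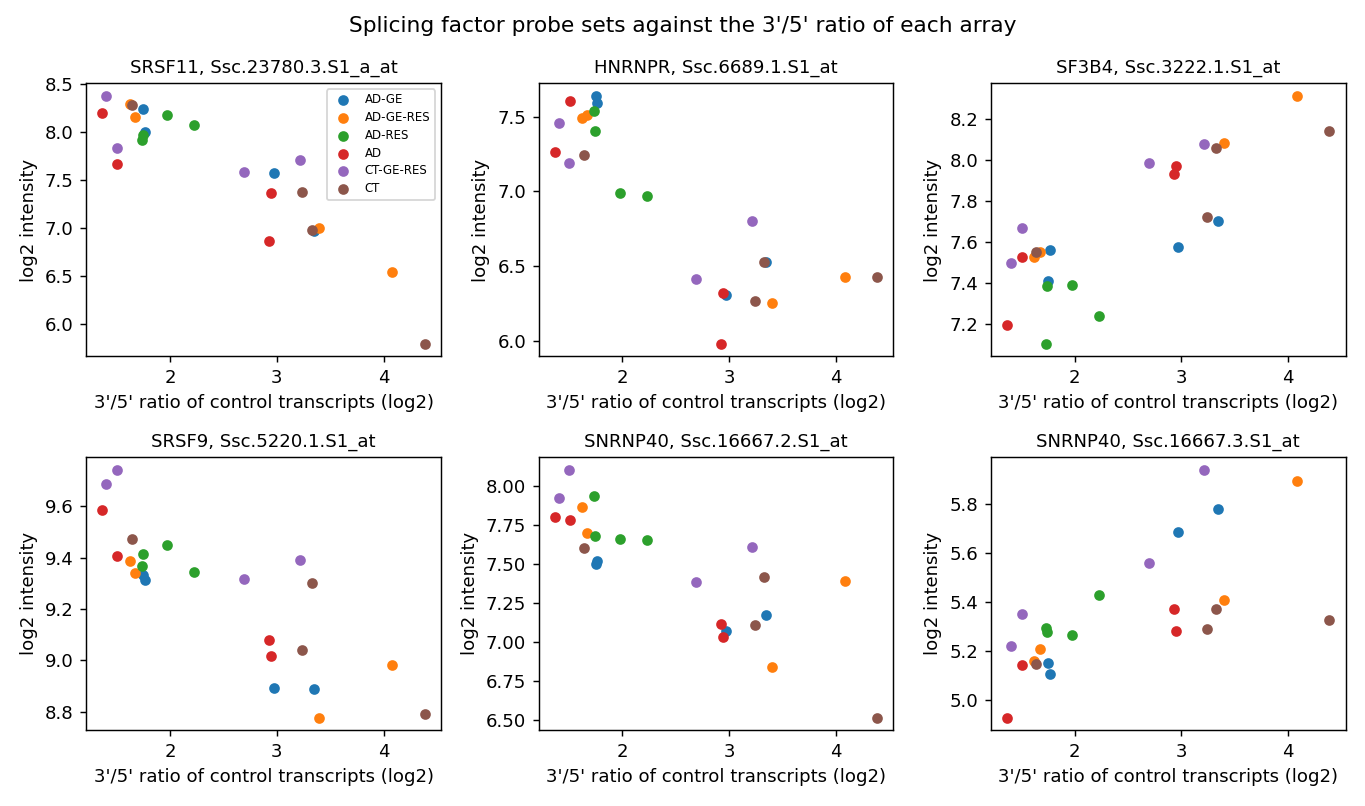
Each panel plots the log2 intensity of 1 probe set (vertical axis) against the log2 3′/5′ ratio of the control transcripts (horizontal axis) in the 24 arrays, coloured by diet. SRSF11, HNRNPR, SRSF9 and SNRNP40 (Ssc.16667.2.S1_at) decline with the ratio, and SNRNP40 (Ssc.16667.3.S1_at) and SF3B4 are higher in most animals with a high ratio.

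Probe sets of the same gene often disagreed. Among the tested members, 21 genes had more than 1 probe set (55 probe sets, 54 pairs). Within diets, over 24 arrays, the correlation of such pairs had a median of 0.32, with 20 pairs over 0.5 and 12 under 0, compared with a median of 0.12 over 4996 pairs of different genes on the same arrays. Slopes on the ratio had both signs in 13 of the 21 genes. SNRNP40 was the 1 gene with called slopes of both signs. Its probe set Ssc.16667.2.S1_at fell by 0.34 per unit (SE 0.05, limma adjusted p 0.000143) while Ssc.16667.3.S1_at went up by 0.23. Their within-diet correlation was -0.54, the lowest of the 54, and was 0.59 once the ratio was in the fit.

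The opposite slopes of SNRNP40 were visible in single animals. The first AD-GE-RES animal, with a ratio of 3.40, had 6.84 on Ssc.16667.2.S1_at with 5.41 on Ssc.16667.3.S1_at. The fourth AD-GE-RES animal, with a ratio of 1.62, had 7.86 with 5.16. The animals thus had the opposite order on the 2 probe sets. They differed in sex as well as in ratio, the first being a female and the fourth a male. In CT-GE-RES against CT with the ratio as a covariate, Ssc.16667.3.S1_at differed by 0.45 (SE 0.11), with a limma adjusted p of 0.957.

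SRSF1 had a probe set that fell by 0.42 per unit (Ssc.7576.3.S1_at, limma adjusted p 0.00731), while its other probe sets had slopes of 0.09 and 0.06. The correlation of Ssc.7576.3.S1_at with Ssc.7576.1.S1_at within diets was 0.17, and 0.64 after the ratio. For SRSF6 the slopes were -0.33 on Ssc.17252.1.S1_at and between -0.03 and 0.05 on the others. SRSF9 had -0.24 on Ssc.5220.1.S1_at and 0.04 on Ssc.28160.1.A1_at, with a within-diet correlation of -0.17. SRSF11 had 5 tested probe sets, of which Ssc.17158.1.S1_at and Ssc.17158.2.A1_at were the best matched pair of all (r = 0.82). Its probe set Ssc.23780.2.A1_at was negatively correlated with 3 of the other 4, but was dim, with a mean of 4.40 over the arrays. Which part of a transcript each probe set reads was not used here, so an isoform and a position effect cannot be told apart.

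**Figure D5:**
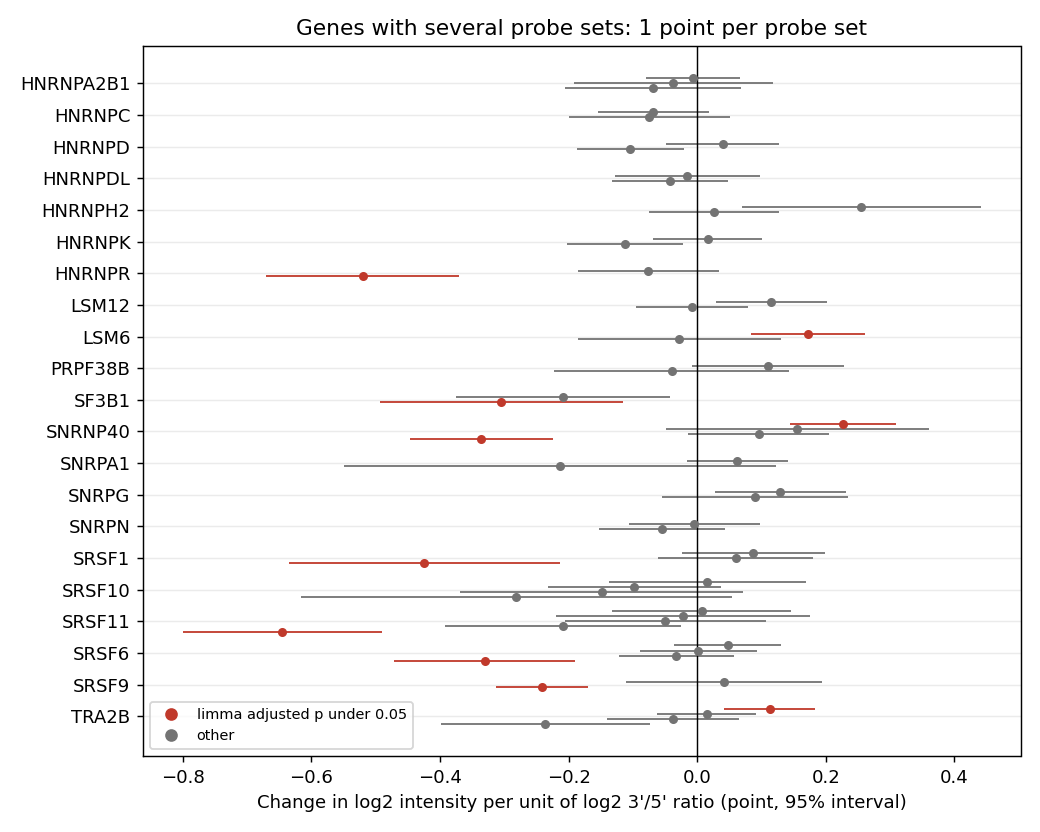
Points are slopes of log2 intensity per unit of log2 3′/5′ ratio with 95% intervals, 1 for each probe set of the 21 genes with several probe sets; red marks a limma adjusted p under 0.05. HNRNPR, SRSF1, SRSF6, SRSF9 and SRSF11 each have 1 red negative probe set beside grey ones nearer 0, and SNRNP40 has red points on both sides of 0.

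Between sexes, 0 of 101 splicing probe sets were called by limma, where 0.267% of all probe sets were (0.194% higher in females, 0.0722% lower). At an unadjusted p under 0.05 there were 6, all higher in females, where 10.3% of all passed (7.23% higher, 3.09% lower). U2AF1L4, a small-subunit relative of U2AF1, had the smallest p and was 0.24 higher in females than in males (SE 0.08, limma adjusted p 0.294). In AD pigs it measured 8.29 and 7.75 in females, against 7.76 and 7.62 in males, which overlapped, and in AD-RES pigs 8.17 and 8.12 in females, against 7.77 and 7.92 in males, which did not. PRPF4B, a spliceosomal kinase (0.23, SE 0.10, limma adjusted p 0.418), PRPF38B on Ssc.3837.2.S1_at (0.22, SE 0.10, limma adjusted p 0.43) and SNRPC, a U1 snRNP protein (0.12, SE 0.05, limma adjusted p 0.435), followed.

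Within males, 2 members were called in AD against CT from the fit of 12 diet and sex groups, where 1.34% of all probe sets were called. SRSF6 on Ssc.17252.1.S1_at was 1.28 higher (SE 0.30, limma adjusted p 0.0481), with 10.47 and 10.06 in AD males against 9.06 and 8.91 in CT males. HNRNPL, an hnRNP that regulates CD45 exon skipping in T cells, was 0.73 higher (SE 0.17, limma adjusted p 0.0458), with 9.80 and 9.72 in AD males against 9.07 and 8.996 in CT males. In females HNRNPL measured 9.58 and 9.22 in AD pigs against 9.75 and 9.65 in CT pigs, the opposite order (-0.30, SE 0.17, limma adjusted p 0.869). The sex difference of the AD against CT contrast, females minus males, was -1.03 for HNRNPL (SE 0.24, limma adjusted p 0.103) and called 0 of 101 members, where 0.117% of all probe sets were called. Leaving out 1 CT male leaves 1 array in that cell, which is assumed to vary like the other cells of the fit. Without the fourth CT animal 0 members were called in males, with differences of 1.21 for SRSF6 (SE 0.38, limma adjusted p 0.231) and 0.69 for HNRNPL (SE 0.21, limma adjusted p 0.208). Without the third CT animal the differences in males were 1.36 for SRSF6 and 0.77 for HNRNPL. Once the 3′/5′ ratio was a covariate 0 members were called in males, with 0.85 for SRSF6 (SE 0.29, limma adjusted p 0.182) and 0.83 for HNRNPL (SE 0.20, limma adjusted p 0.0538). In AD-RES against AD, 84 of 101 splicing probe sets were higher in females (median 0.15) and 39 in males (median -0.08). Of all probe sets 52.6% were higher in females and 46.3% in males, with 2 animals a cell. The test of that sex difference called 0 members and 0% of all probe sets.

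Other splicing genes, 131 from textbook knowledge of which 78 were measured by 113 probe sets, gave no call between diets by limma either. Their counts at an unadjusted p under 0.05 were 7 for AD-GE, 2 for AD-GE-RES and 7 for AD-RES, each against AD, 10 for AD against CT and 13 for CT-GE-RES against CT. These are shares of 6.19%, 1.77%, 6.19%, 8.85% and 11.5%, where 6.09%, 2.4%, 4.45%, 6.38% and 6.8% of all probe sets passed. ZMAT5, a protein of the minor spliceosome, had a difference of 0.31 in AD-GE against AD (limma adjusted p 0.795) and -0.40 in AD against CT (limma adjusted p 0.757). GEMIN6, of the SMN complex that loads Sm rings, was 0.39 higher in AD-RES than in AD, and PTBP1, the polypyrimidine tract repressor, was 0.45 lower, a value of -0.45 (limma adjusted p 0.98 each). TXNL4A, a U5 snRNP protein, differed by 0.29 in CT-GE-RES against CT (limma adjusted p 0.7). In the same comparison 81 of the 113 were higher, with a median of 0.12, where 52.3% of all probe sets were higher. The slope on the 3′/5′ ratio was called for 26 of the 113 (3 positive, 23 negative), where 11.5% of all were called, led by SLU7, a second-step factor, which fell by 0.88 per unit (limma adjusted p 3.98e-08).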

How the data were processed

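Each PBMNC sample was hybridised to 1 Affymetrix porcine array. The authors deposited linear intensity values. RMA and GCOS are named per the submitters' processing notes; versions and roles are not given in the sources used here. Values were taken to log2, 124 control probe sets were set aside, and the lowest 25% by mean (log2 under 3.57) were left out, which left 17999. Symbols came from the platform annotation: 8540 of these probe sets had 1 symbol, 168 several and 9291 none. All 110 splicing probe sets matched a RefSeq entry with the same symbol. The 9 below the filter were those of PRPF38B, SRSF10, PRPF39, LSM6, HNRNPUL1, TRA2B, SRSF12 (its single probe set) and SRSF6 (2). Sequences and genome positions were not used here.

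With limma 3.58.1 (R 4.3.3), diet means and a sex term were estimated from the 24 arrays together (17 residual and 3.60 prior degrees of freedom), two-sided, with Benjamini-Hochberg adjustment over all probe sets tested and a threshold of 0.05. Results for females or males alone came from a fit of 12 diet and sex groups, with 2 animals a cell. Exact permutation of 4 against 4 can give no p under 0.0286. The method was tested on simulated data. Chosen to be named were the 3 members with the smallest p in each direction of each comparison, 4 by the F test and by sex, and 4 of each slope sign. Some were given with the values of single animals in all or some diets, and others with a difference or slope alone. Members that did not overlap between groups, HNRNPL and the probe sets of 1 gene were added after their values were seen. Members and lists were chosen with earlier results of these data known. Alternatives were other filters, normalizations, covariates, weights, priors and samples. Replicate numbers follow accession order and only name an animal.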

Additional observations from a re-analysis of the deposited data

Results flagged for a closer look

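Among 228 groups of 4 values (37 named probe sets and the 3′/5′ ratio, in 6 diets), 13 held an animal far from the other 3, where chance gives about 1 in 20, or 11.4. In CT pigs, SRSF10 on Ssc.21960.1.S1_at was 8.86 in the first animal and 7.18 to 7.38 in the others, and SNRPN on Ssc.3875.1.S1_a_at was 7.86 there and 7.73 to 7.75 in the others. HNRNPM was 9.96 in the fourth CT animal, the one with the highest 3′/5′ ratio, and 10.33 to 10.39 in the others.

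In AD pigs, TRA2B on Ssc.7281.2.A1_at was 9.56 in the first animal (others 9.20 to 9.25), and SNRPB2 was 9.34 in the second (others 9.75 to 9.76). Both lie in groups compared above: the difference of SNRPB2 in AD-RES against AD was -0.45 without the second AD animal. SRSF11 on Ssc.23780.1.S1_at was 9.72 in the first AD-GE-RES animal (others 10.31 to 10.42). In AD-GE pigs, LSM2 was 8.81 in the first animal (others 8.88 to 8.89) and PRPF19 was 9.54 in the fourth (others 9.66 to 9.67). In AD-RES pigs, SNRNP40 was 7.93 on Ssc.16667.2.S1_at in the second animal (others 7.65 to 7.68) and 5.43 on Ssc.16667.3.S1_at in the first (others 5.26 to 5.29).

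In CT-GE-RES pigs, HNRNPF was 11.57 in the second animal (others 11.67 to 11.68). In the fourth animal HNRNPU was 6.65 (others 5.93 to 6.04) and SNRPB2 was 9.46 (others 9.74 to 9.77).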

How the results depend on the processing

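Counts of 0 called splicing probe sets held in the 5 comparisons, the F test and the diet-by-extract test under every alternative run, except AD against CT in males alone (2) and in males without the third CT animal (8). Females against males gave 1 call with array weights. Leaving out 1 array kept each of these counts at 0. The sex-by-diet test of AD against CT gave calls without the third CT animal and without the first or the second AD-GE-RES animal. Each of those fits left 1 array in a cell. The 18 called slopes became 1 with T cell and monocyte marker means and 10 without the first CT animal (10 to 21 over single arrays). The shares of all probe sets called under these settings are not given here, and the cause was not tested. Signs turned in males for SF3A1 in AD against CT (0.13, and 0.12 and 0.14 without the third or the fourth CT animal, 0.36 with the ratio), SRSF11 on Ssc.17158.1.S1_at in AD-GE-RES against AD (0.32) and HNRNPA3 (-0.030), and in females for SRSF10 in AD-GE against AD (-0.28). LSM12 in CT-GE-RES against CT was 0.071 with the marker means. Averaging all probe sets of a gene turned LSM12 (0.023), SRSF1 in AD against CT (0.0045), TRA2B (0.0056 for AD-GE and 0.0035 for AD-GE-RES), SRSF11 (0.013) and the SNRNP40 slope (0.036). No paired analysis was possible because the labels give no shared replicate numbers. With 4 animals a group, changes under 2-fold could be missed. The fits of males without 1 CT animal or with the ratio, the ratios of single control transcripts and the counts of members higher under each setting were chosen after seeing the data.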
